A study of Mus musculus with 12 samples.

Results

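Phosphofructokinase (PFK-1) and the PFKFB enzymes hold the control point of glycolysis, and the mRNA levels of all 7 mouse genes that encode them were measured here in the kidney cortex of mice with constitutively active HIF1α. The members were taken by name from the enzyme families: the PFK-1 genes Pfkl, Pfkm and Pfkp, and the bifunctional-enzyme genes Pfkfb1, Pfkfb2, Pfkfb3 and Pfkfb4. They are 7 of the 37681 genes in the deposited table, and all 7 were among the 19399 genes with enough reads to be tested. RNA was sequenced from cortex slices of 3 TG+ and 3 TG− mice, with a library from each of the 2 kidneys of every mouse, 12 libraries in all. TG+ mice (43-29, 43-49 and 43-75) carry the TRACK transgene γ-HIF1αM3, a mutated HIF1α that is expressed in the renal proximal tubules from the γ-GT (GGT) promoter, whereas TG− mice (43-26, 43-50 and 43-76) are wild-type littermates. All 6 mice were C57BL/6 males, 18 months old, without treatment, and the TG+ mice are of a single transgenic line.

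PFK-1 phosphorylates fructose 6-phosphate to the bisphosphate, the irreversible step that commits sugar to glycolysis. It works as a tetramer assembled from the liver type (L, Pfkl), muscle type (M, Pfkm) and platelet type (P, Pfkp) subunits. PFKFB enzymes carry a kinase and a phosphatase in a single polypeptide, and they make and break fructose 2,6-bisphosphate, the strongest allosteric activator of PFK-1 and an inhibitor of fructose bisphosphatase. The PFKFB isozymes differ in the balance of these activities, with the kinase dominating in PFKFB3. In the proximal tubule this step normally meets gluconeogenesis, in which fructose bisphosphatase (Fbp1) runs the reaction backwards.

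In TG+ kidney cortex, 3 of the 7 genes rose: Pfkp by 10.1-fold, Pfkfb3 by 5.09-fold and Pfkl by 4.35-fold. The muscle type Pfkm and the most abundant bifunctional enzyme of TG− cortex, Pfkfb2, had log2 fold changes of -0.21 and -0.20, and Pfkfb4 had 0.45, none of which passed the threshold. Pfkfb1 was scarce in both genotypes. Per kb of mRNA the platelet type took the place of the muscle type as the leading PFK-1 transcript, an order that depended on the length used, while its share was higher in TG+ mice by every length tried.

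The sequences upstream of the genes that rose are shown because the transgene encodes a DNA-binding factor. HIF1 binds the core letters ACGTG or GCGTG, and these were searched on both strands in RefSeq promoter windows (GRCm38.p6) of 250 bases before to 50 bases after a start. All 7 members had a match in at least 1 window, in 12 of their 16 windows, and some windows of a gene overlap. Among the 32851 windows in the whole table, ACGTG was held by 19.6%, GCGTG by 32.4% and either of them by 43.8%. A match describes letters only, since no binding was measured. Capitals mark matches on either strand, bases run 5′ to 3′ along the gene, and only the bases outside annotated exons (GENCODE M21) are printed. In CACGTG the motif is read on both strands, so a single place counts as 2 overlapping matches.
Pfkp, chr13:6648778-6649021, minus strand: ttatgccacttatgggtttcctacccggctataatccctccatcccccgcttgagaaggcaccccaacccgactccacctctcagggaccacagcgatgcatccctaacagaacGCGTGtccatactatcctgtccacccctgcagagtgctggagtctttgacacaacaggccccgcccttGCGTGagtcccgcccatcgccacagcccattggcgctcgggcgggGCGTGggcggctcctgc
Pfkl, chr10:78009808-78010004, minus strand: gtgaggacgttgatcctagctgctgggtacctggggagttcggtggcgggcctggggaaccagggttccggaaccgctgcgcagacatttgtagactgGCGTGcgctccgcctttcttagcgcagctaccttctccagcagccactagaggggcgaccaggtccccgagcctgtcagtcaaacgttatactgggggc
Pfkfb3, chr2:11502102-11502340, minus strand: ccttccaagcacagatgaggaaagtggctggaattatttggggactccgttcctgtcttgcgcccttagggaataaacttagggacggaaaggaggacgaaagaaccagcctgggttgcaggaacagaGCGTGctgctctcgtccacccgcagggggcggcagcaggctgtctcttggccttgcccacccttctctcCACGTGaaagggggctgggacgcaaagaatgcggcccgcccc
Pfkfb2, chr1:130715822-130716071, minus strand: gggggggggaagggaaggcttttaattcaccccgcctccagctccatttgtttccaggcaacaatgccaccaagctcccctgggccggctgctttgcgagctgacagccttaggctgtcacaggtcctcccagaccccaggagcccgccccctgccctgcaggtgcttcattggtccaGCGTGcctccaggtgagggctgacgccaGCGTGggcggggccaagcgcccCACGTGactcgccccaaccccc

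The Pfkp window held 4 matches to GCGTG on the strand of the gene, at -136, -68, -23 and 29 bases from the start. The Pfkl window held 1 match, at -99. Pfkfb3 has 2 windows: the distal start had ACGTG at -60, inside an annotated exon, and the start shown above had GCGTG at -122, the palindrome from -53 and GCGTG at 37. The Pfkfb2 sequence is given as the counterpart of a gene that did not rise. It too held matches, GCGTG at -72 and -44 and the palindrome from -22.

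The libraries held 48052131 to 60506785 reads on genes per mouse. Levels are given in CPM, that is, reads scaled to the library size after TMM normalization, and reads of both kidneys of a mouse were summed. A gene was called when its adjusted p (edgeR's quasi-likelihood test, Benjamini-Hochberg over all 19399 genes) lay below 0.01 and its fold change was above 2 or below 0.5. By this rule 3.98% of all genes tested were called, 3.77% as higher and 0.211% as lower in TG+ cortex. Of the 7 members, 3 were called higher and 0 lower. The TG+ and TG− mice did not overlap in 6 of the 7 members, against 44.2% of all genes tested. On library size alone, without TMM, the mice of Pfkm and Pfkfb2 overlapped as well, and the number was 4 of 7, against 45.2% of all genes. At an adjusted p below 0.01 with any fold change, the members called were again Pfkp, Pfkl and Pfkfb3, 3 of 7, against 12.2% of all genes (1534 higher and 824 lower). The median log2 fold change was 0.45 for the 7 members and 0.01 for all genes tested. Because the cortex was sequenced in bulk, fewer cells of a type and less RNA per cell cannot be told apart. With 3 mice a group, an exact permutation test of a single value over its 20 assignments of mice cannot give a 2-sided p below 0.1.

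**Figure D1:**
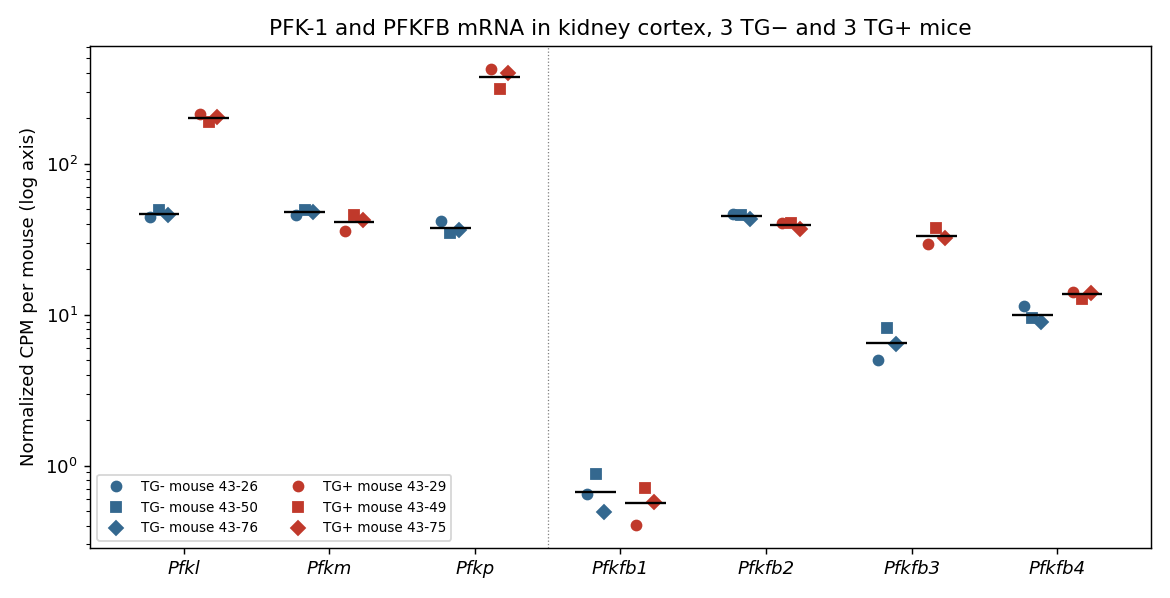
Normalized CPM (log axis) of the 3 PFK-1 genes (left of the dotted line) and the 4 PFKFB genes in each of 3 TG− mice (blue) and 3 TG+ mice (red), with bars at the group means. Pfkp, Pfkl and Pfkfb3 stand far above their TG− levels in every TG+ mouse, and Pfkfb1 lies below 1 CPM in all 6.

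Pfkp, the platelet-type subunit (ENSMUSG00000021196, chr13:6579768-6648777 in GRCm38, minus strand), had the largest change of the members. Its levels were 427, 312 and 399 CPM in TG+ mice 43-29, 43-49 and 43-75, and 41.7, 34.7 and 36.4 CPM in TG− mice 43-26, 43-50 and 43-76. The lowest TG+ mouse, 43-49, still lay far above the highest TG− mouse. The means were 380 ± 60.5 and 37.6 ± 3.62 CPM (SD, n = 3 each), a log2 fold change of 3.33 (SE 0.13, 95% interval 3.03 to 3.64, adjusted p = 6.33e-06), or 10.1-fold. Among all genes tested Pfkp ranked 125 by log2 fold change and 20 by its rise in CPM. Pfkp overlaps Pitrm1, and since the handling of strand in the authors' counting is not given in the sources used here, reads of overlapping genes may be shared.

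Pfkl, the liver-type subunit (ENSMUSG00000020277, chr10:77986947-78010083, minus strand), rose as well and overlaps no other gene. TG+ mice had 213, 188 and 204 CPM in the order above, and TG− mice had 44.3, 49.1 and 45.5 CPM. The groups were tight and widely separated, with means of 202 ± 12.5 and 46.3 ± 2.50 CPM (SD, n = 3 each). The log2 fold change was 2.12 (SE 0.07, 95% interval 1.96 to 2.28, adjusted p = 3.50e-06), or 4.35-fold, and Pfkl ranked 349 by log2 fold change and 41 by its rise in CPM.

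Pfkm, the muscle-type subunit (ENSMUSG00000033065, chr15:98092589-98132451, plus strand, overlapping Senp1), was the PFK-1 gene that did not pass the test. It measured 35.7, 45.6 and 42.4 CPM in the TG+ mice and 45.9, 49.2 and 47.8 CPM in the TG− mice. On this scale all TG+ mice lay below all TG− mice, but 43-49 came within less than 1 CPM of 43-26. The log2 fold change was -0.21 (SE 0.09), with a 95% interval from -0.42 to just under 0 and an adjusted p of 0.127, and it was -0.09 by library size alone (adjusted p = 0.545). In single kidneys the groups overlapped, since TG+ libraries ranged from 34.5 to 48.4 CPM and TG− libraries from 45.7 to 49.2 CPM. The skeletal muscle markers, whose tissue is the classic site of Pfkm, summed to 4.24 to 4.43 CPM in TG+ mice and 2.95 to 6.90 CPM in TG− mice over 7 genes. Of the 2 that were tested none was called.

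Pfkfb3, the isozyme with the strongest kinase (ENSMUSG00000026773, chr2:11471433-11554077, minus strand, no overlapping gene), rose from the lowest levels of the genes called. The TG+ mice had 29.6, 37.5 and 32.5 CPM, and the TG− mice had 5.01, 8.14 and 6.37 CPM. Every TG+ mouse lay far above the highest TG− mouse, 43-50. The means of 33.2 ± 4.02 and 6.51 ± 1.57 CPM (SD, n = 3 each) gave a log2 fold change of 2.35 (SE 0.17, 95% interval 1.95 to 2.75, adjusted p = 1.15e-04), or 5.09-fold. By log2 fold change Pfkfb3 ranked 281.

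Pfkfb2, the heart-type isozyme (ENSMUSG00000026409, chr1:130689182-130729253, minus strand, overlapping Yod1), was the main PFKFB transcript of TG− cortex and did not follow Pfkfb3. It measured 40.9, 40.4 and 37.2 CPM in TG+ mice and 46.9, 45.6 and 43.2 CPM in TG− mice. On this scale all 3 TG+ mice were lower, by a small margin, and by library size alone the mice overlapped. The log2 fold change of -0.20 (SE 0.06, 95% interval -0.34 to -0.06) had an adjusted p of 0.0478 and missed the threshold, and it was -0.08 by library size alone (adjusted p = 0.412).

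Pfkfb4, an isozyme first described in testis and, like Pfkfb3, known to respond to hypoxia (ENSMUSG00000025648, chr9:108991778-109032228, plus strand, no overlapping gene), differed far less than Pfkfb3. The TG+ mice had 14.2, 12.8 and 14.0 CPM and the TG− mice 11.5, 9.58 and 8.90 CPM. The groups did not overlap, with 43-49 and 43-26 closest. The log2 fold change of 0.45 (SE 0.11, 95% interval 0.20 to 0.70) had an adjusted p of 0.0185 and missed the threshold, and its interval ended well below that of Pfkfb3. Its adjusted p depended on the processing. It was 0.0035 by DESeq2, 0.00711 by library size alone and 0.0202 with upper-quartile scaling. When a mouse was left out it lay between 0.00761 (without 43-26) and 0.0655 (without 43-75). In each of these fits the fold change stayed below 2.

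Pfkfb1, the liver- and muscle-type isozyme (ENSMUSG00000025271, chrX:150588229-150643878, plus strand, overlapping Apex2), rested on only 20 to 50 reads per mouse. Its levels were 0.404, 0.705 and 0.578 CPM in TG+ mice and 0.643, 0.875 and 0.491 CPM in TG− mice. The groups overlapped, and at this depth a difference was not detectable (log2 fold change -0.25, SE 0.29, 95% interval -0.93 to 0.43, adjusted p = 0.572).

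The kidneys of a mouse gave like values for all members but Pfkfb1. The largest log2 difference between the kidneys of a mouse was 0.09 for Pfkp, 0.12 for Pfkl, 0.13 for Pfkfb2, 0.17 for Pfkm, 0.19 for Pfkfb3, 0.24 for Pfkfb4 and 0.70 for Pfkfb1. Over the 12 single libraries Pfkp ranged from 307 to 434 CPM in TG+ and from 34.1 to 42.9 CPM in TG− kidneys. Pfkfb3 ranged from 29.2 to 38.4 CPM in TG+ and from 4.88 to 8.50 CPM in TG− kidneys. For Pfkfb4 the lowest TG+ library (12.6 CPM) and the highest TG− library (12.4 CPM) almost met, and Pfkfb2 likewise reached 41.88 CPM in TG+ against a lowest TG− value of 41.94 CPM.

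To compare isozymes with each other, CPM were divided by the length of the mRNA, taken as the longest transcript of the gene with a consensus coding sequence in GENCODE M21. The summed PFK-1 level on this scale was 173, 141 and 166 CPM per kb in the TG+ mice and 37.9, 38.6 and 37.6 in the TG− mice. The TG− mice were nearly equal, and the TG+ mean was 4.19-fold higher (160 ± 16.4 against 38.0 ± 0.527 CPM per kb, SD, n = 3 each, exact permutation p = 0.1, the smallest possible). By mRNA length Pfkp made up 67.7% and Pfkl 34.2% of the summed rise, while Pfkm contributed -1.83%. That split depended on the length: Pfkp and Pfkl made up 54.5% and 49.6% by exon union, and 36% and 65.7% by the lengths behind the deposited RPKM. The summed PFKFB level differed less, at 19.7, 21.01 and 19.5 CPM per kb in TG+ and 15.3, 15.3 and 13.9 in TG− mice. These groups did not overlap either, and their means of 20.1 ± 0.811 and 14.8 ± 0.784 CPM per kb (SD, n = 3 each) differed by 0.44 on the log2 scale (exact permutation p = 0.1). The rise of Pfkfb3 came to 106% of the summed PFKFB difference and that of Pfkfb4 to 20.04%, whereas Pfkfb2 contributed -24.7%.

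Per kb, the share of the platelet type in PFK-1 was higher and that of the muscle type lower in TG+ cortex. The level of Pfkm itself differed little (14.3 CPM per kb in TG+ and 16.5 in TG− cortex), while the summed PFK-1 level was 4.19-fold higher. Pfkp held 59.8%, 53.2% and 58.2% of PFK-1 in the TG+ mice and 26.5%, 21.7% and 23.4% in the TG− mice. Pfkm held 7.18%, 11.2% and 8.90% in the TG+ mice and 42.1%, 44.2% and 44.2% in the TG− mice. Neither isozyme overlapped between genotypes, and mouse 43-49 was nearest to the TG− mice for both. The mean share of Pfkp was 57.0 ± 3.44% in TG+ and 23.9 ± 2.46% in TG− cortex, and that of Pfkm was 9.09 ± 2.01% and 43.5 ± 1.21% (SD, n = 3 each, exact permutation p = 0.1 for either). Pfkl had a share of 33.9 ± 1.53% in TG+ and 32.6 ± 1.37% in TG− cortex (exact permutation p = 0.4), and its mice overlapped. In TG− cortex the order per kb was thus Pfkm (16.5 CPM per kb), Pfkl (12.4) and Pfkp (9.08), and in TG+ cortex Pfkp (91.6), Pfkl (54.0) and Pfkm (14.3), and in each genotype neighbours in the order were separated in all 3 mice.

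**Figure D2:**
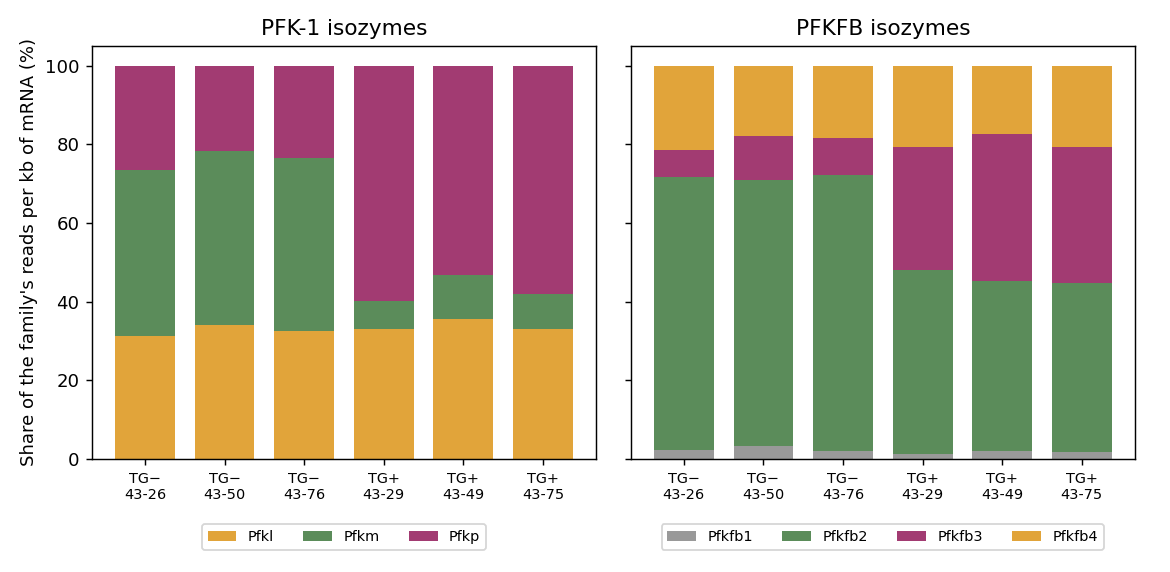
Share of each isozyme (%) in the summed reads per kb of mRNA of the PFK-1 genes (left) and PFKFB genes (right), stacked to 100% for each of the 3 TG− and 3 TG+ mice. Pfkp (purple, left) widens from 21.7 to 26.5% in TG− mice to 53.2 to 59.8% in TG+ mice while Pfkm (green) narrows. Pfkfb3 (purple, right) widens while Pfkfb2 (green) narrows. Shares do not show that the summed level differs between the genotypes.

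The order of the isozymes and the size of the shift depended on the length used, whereas the direction for Pfkp and Pfkm did not. Without any length, Pfkp had a share of 60.8% in TG+ and 28.6% in TG− cortex and Pfkm 6.73% and 36.2%, so that Pfkm and Pfkl (35.2%) were close in TG− mice. With the union of all annotated exons, which is long for Pfkp, its shares were 39.8% and 11.7%, and Pfkl led in TG+ cortex with 42.6%. With the lengths behind the deposited RPKM, Pfkl led in both genotypes, with 62.6% and 53.9%, and Pfkp had 29.2% and 10.9%. The difference in the share of Pfkm was -34.4 percentage points by mRNA length, -29.5 without length, -27.0 by deposited length and -41.8 by exon union. On all 4 scales the share of Pfkp was higher and that of Pfkm lower in every TG+ mouse than in every TG− mouse. The share of Pfkl overlapped between genotypes on the mRNA scale and without length, and was higher in TG+ mice by exon union and by deposited length.

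**Figure D3:**
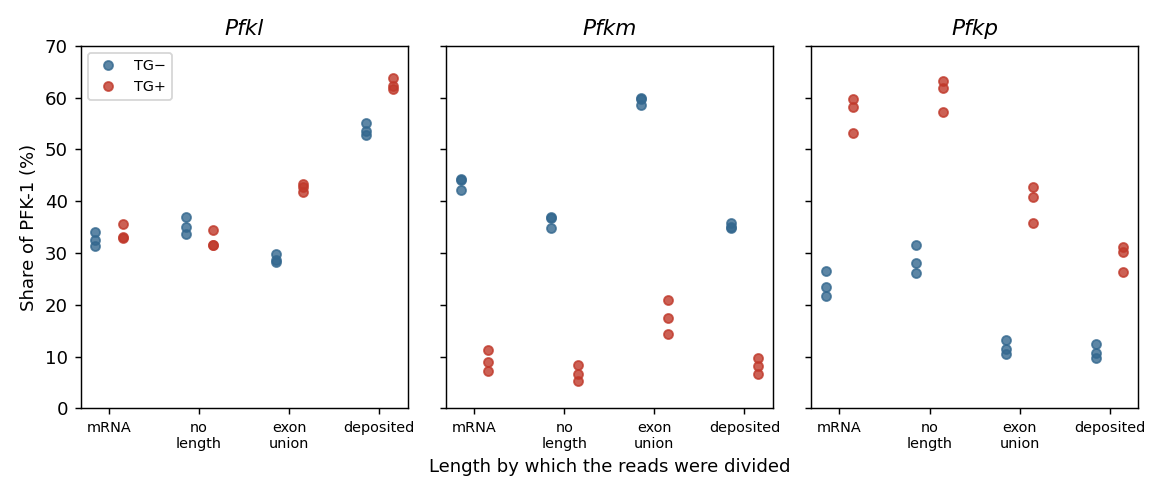
Share (%) of Pfkl, Pfkm and Pfkp in the PFK-1 reads of each mouse (TG− blue, TG+ red) after division by the mRNA length, by no length, by the exon union and by the length behind the deposited RPKM. On every scale the red points lie below the blue ones for Pfkm and above them for Pfkp, while the level of a share moves with the length.

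Among the bifunctional enzymes the share of Pfkfb3 was higher and that of Pfkfb2 lower in TG+ cortex, while the level of Pfkfb2 itself differed little (log2 fold change -0.20). Pfkfb3 held 31.3%, 37.2% and 34.6% of PFKFB reads per kb in the TG+ mice and 6.82%, 11.1% and 9.52% in the TG− mice. Pfkfb2 held 46.8%, 43.4% and 43.1% in the TG+ mice and 69.2%, 67.6% and 70.1% in the TG− mice. The groups were apart for both genes, with means of 34.4 ± 2.98% against 9.15 ± 2.17% for Pfkfb3 and 44.5 ± 2.08% against 69.0 ± 1.28% for Pfkfb2 (SD, n = 3 each, exact permutation p = 0.1). Pfkfb2 remained the most abundant isozyme per kb in all 6 mice. Pfkfb4 kept a share of 19.6 ± 1.86% in TG+ and 19.3 ± 1.96% in TG− cortex (exact permutation p = 1.0), so that it ranked above Pfkfb3 in the TG− mice and below it in the TG+ mice. Pfkfb1 had 1.60% in TG+ and 2.58% in TG− cortex.

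Ratios within a mouse do not depend on the library size. On the log2 scale per kb, Pfkp to Pfkm was 3.06, 2.25 and 2.71 in the TG+ mice and -0.67, -1.03 and -0.92 in the TG− mice. The sign turned between the genotypes, and the means of 2.67 and -0.87 differed by 3.54. With the mRNA length, Pfkp to Pfkl turned as well, from -0.45 to 0.75 in the mean, a difference of 1.20, and Pfkl to Pfkm from -0.42 to 1.92, a difference of 2.34. Another length shifts the ratio of a gene pair by the same amount in every mouse, so the difference stays but the sign need not: in the mean Pfkl exceeded Pfkp in TG+ cortex by exon union and by deposited length, and Pfkl exceeded Pfkm in TG− cortex by deposited length. Pfkfb3 to Pfkfb2 was -0.58, -0.22 and -0.31 in TG+ mice and -3.34, -2.60 and -2.88 in TG− mice, a difference of 2.57 with no change of sign. Pfkfb4 to Pfkfb3 went from 1.10 to -0.81. The exact permutation p was 0.1 for each of 7 ratios and 0.1 after adjustment over them, the smallest value possible.

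Against the enzymes that oppose them, PFK-1 and PFKFB stood higher in TG+ cortex. Fructose bisphosphatase Fbp1, the gluconeogenic counterpart of PFK-1, was abundant and near equal in the genotypes: 1005, 1080 and 1044 CPM in TG+ mice and 1007, 1119 and 989 CPM in TG− mice. The groups overlapped, with a log2 fold change of 0.01 and an adjusted p of 0.955. The log2 ratio of summed PFK-1 to Fbp1 per kb was -2.15 in TG+ and -4.20 in TG− cortex, a difference of 2.06, so Fbp1 exceeded PFK-1 per kb of mRNA in all 6 mice. Tigar, a phosphatase that removes fructose 2,6-bisphosphate, had 8.55, 10.6 and 8.82 CPM in TG+ and 10.4, 12.01 and 11.8 CPM in TG− mice. Mouse 43-49 overlapped the TG− mice, and the log2 fold change of -0.29 had an adjusted p of 0.079. Relative to summed PFKFB, Tigar was at -2.98 in TG+ and -2.25 in TG− cortex on the log2 scale.

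The other genes that make or use fructose phosphates were listed by role, 12 in all, and 2 were called higher and none lower, with a median log2 fold change of 0.02. They were the enzymes on either side of PFK-1. Glucose phosphate isomerase Gpi1, which supplies fructose 6-phosphate, rose from 106 ± 1.82 to 544 ± 88.8 CPM (SD, n = 3 each, log2 fold change 2.36), and aldolase C (Aldoc), which splits the product of PFK-1, rose from 3.72 to 20.7 CPM (log2 fold change 2.47). Aldoa, with 0.86, and the muscle fructose bisphosphatase Fbp2, with -0.65 (adjusted p = 9.21e-04), passed the adjusted p but not the fold threshold. The branch enzymes to the pentose phosphate pathway differed little, with 0.26 for Tkt and -0.25 for Taldo1 and adjusted p of 0.0173 and 0.0181. Gfpt2 of the hexosamine pathway had 1.09 at a low level, with an adjusted p of 0.0797. Of the 12 genes, 8 had an unadjusted p under 0.05, against 39.1% of all genes tested.

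**Figure D4:**
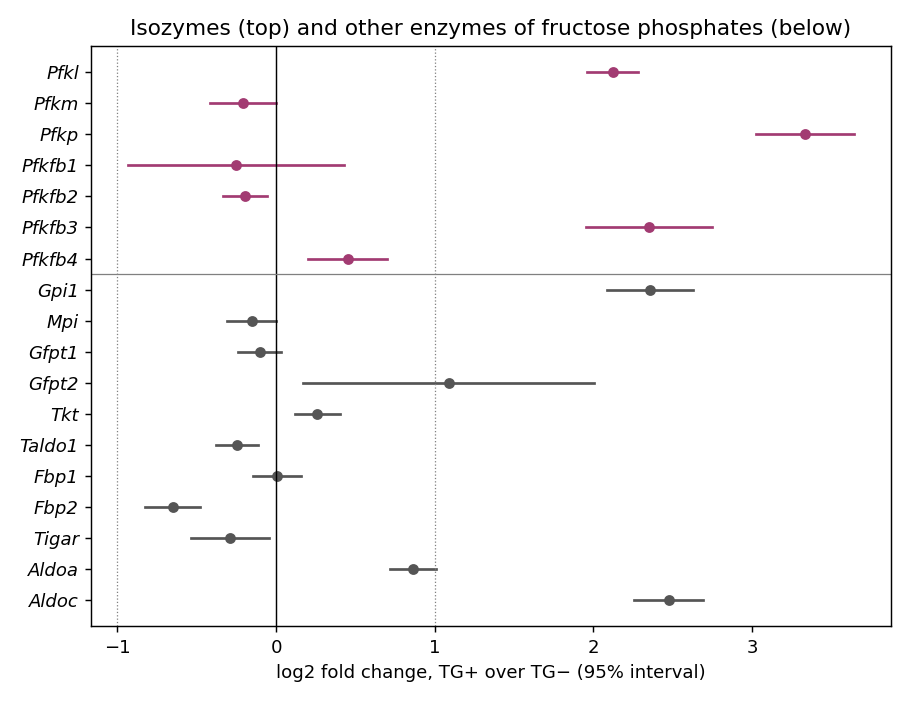
Log2 fold change of TG+ over TG− cortex (points) with its 95% interval (lines) from edgeR's fit for the 7 PFK-1 and PFKFB genes (purple, top) and 11 of the 12 other enzymes of fructose phosphates (grey, below; 1 is counted but not reported here by name), with dotted lines at a 2-fold change. Pfkp (3.33), Aldoc (2.47), Gpi1 (2.36), Pfkfb3 (2.35) and Pfkl (2.12) lie beyond the upper line with their whole interval.

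In the rest of glycolysis 8 of 16 genes were called higher and none lower, with a median log2 fold change of 1.06. Among them were hexokinase 2 (Hk2, 6.16), Pkm (2.57), Eno1 (2.42), Pklr (2.03), Pgk1 (1.56), Ldha (1.41) and Pgam1 (1.31). Of the 8 genes not called, the most abundant were Tpi1 (0.43), Ldhb (-0.13), Hk1 (0.63) and Gapdh (0.82), and the muscle-type enzymes Pgam2 (-0.11) and Eno3 (0.05) were also among them. Tpi1, Hk1 and Gapdh passed the adjusted p (0.00388, 1.62e-04 and 2.05e-04) but not the fold threshold. The kinases and ligase subunits known to act on PFKFB proteins, among them the AMPK subunits, Akt1, Akt2 and Rps6ka1, gave 0 called of 11, with a median of -0.10. At an unadjusted p under 0.05 there were 7 of 11, against 39.1% of all genes tested, and the largest log2 fold changes were 0.42 (Prkab2) and -0.34 (Prkaa2). Prkaa2 passed the adjusted p (0.00617) but not the fold threshold.

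The genes whose 6-mouse pattern was closest to a member were found by the root mean square difference of log2 CPM, each gene centred on its own mean, over 16179 genes (16180 for Pfkfb1, which is itself below that level) with a mean of at least 1 CPM. Closest to Pfkp were Plod2 and Fabp5 (0.074 log2 units each) and Fam162a (0.129). Plod2, a collagen lysyl hydroxylase, had 449, 305 and 393 CPM in TG+ and 41.1, 35.5 and 32.4 CPM in TG− mice. Closest to Pfkl were Hapln1 (0.075), Gm12454 (0.111), which overlaps Car9, and P4ha2 (0.128). Closest to Pfkfb3, at a wider distance, were Ighv3-6 (0.196), the macrophage lectin Clec10a (0.213) and the immunoglobulin kappa constant gene Igkc (0.214). Igkc had 714, 1179 and 1113 CPM in TG+ and 176, 218 and 230 CPM in TG− mice. Like Pfkfb3, and unlike Pfkp, Igkc was lowest in 43-29 among the TG+ mice and lowest in 43-26 among the TG− mice. Clec10a was lowest in the same mice. Ighv3-6, the closest gene, was also lowest in 43-26, but among the TG+ mice it was lowest in 43-75 (8.30 CPM, 10.4 in 43-29). What links these patterns was not tested. For the members not called the nearest genes were A230056P14Rik (0.0244), ENSMUSG00000085364 (0.0288) and Phf21a (0.0323) for Pfkm. For Pfkfb2 they were B930095G15Rik (0.0183), Stk16 (0.0197) and Usp19 (0.0199). For Pfkfb4 they were Endou (0.026), Cyp2d22 (0.0314) and Gm15599 (0.0343). For Pfkfb1 they were 3222401L13Rik (0.0592), Zfp69 (0.127) and Pax9 (0.131).

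Markers of some cell types, but not of all, moved with the genotype, and their part in the members' values was not tested. Of 12 proximal tubule markers 2 were called lower (Slc22a6 and Cyp4b1), none had a log2 fold change above 0, and their summed level was 28151 to 31482 CPM in TG+ and 38972 to 41633 CPM in TG− mice. Of 10 immune markers 4 were called higher (Cd3e, Cd4, Cd79a and Cd79b), with sums of 163 to 181 CPM in TG+ and 91.4 to 116 CPM in TG− mice. The 6 endothelial markers (499 to 537 against 293 to 386 CPM), 6 fibroblast markers (212 to 290 against 138 to 173 CPM) and 10 markers of other nephron segments (3817 to 5147 against 4132 to 4246 CPM) gave 0 called. All 6 endothelial and all 6 fibroblast markers had a log2 fold change above 0, with a median of 0.69 in each list. Of these, 6 and 5 had an unadjusted p under 0.05 in edgeR's test, against 39.1% of all genes tested. The median of the other nephron markers was 0.07. Red cell markers gave 1 called higher of 5 tested, with sums of 72.3 to 92.0 against 43.0 to 52.4 CPM. Liver markers gave 2 of 6 (Apoa1 and Ttr), with sums of 499 to 570 against 386 to 469 CPM. Most of the liver sums came from a single gene that was not called. Of the 6 liver markers tested, 4 had a log2 fold change above 0, and the median was 0.35. Of 7 genes of testis and epididymis the 3 tested (Adam7, Crisp1 and Defb19) were all called higher, with sums over the list of 27.4 to 66.1 against 1.21 to 1.89 CPM, and Prm2, Tnp1 and Acrv1 had 0 reads in every mouse. The mouse Hif1a gene was at 91.7, 109 and 86.3 CPM in TG+ and 107, 103 and 103 CPM in TG− mice (log2 fold change -0.12, adjusted p = 0.343), so the mice overlapped and the labels were not checked by this gene.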

How the data were processed

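Kidney cortex RNA of 6 mice was read in single-end runs of 51 bp. The authors deposited a table of unnormalized read counts per gene in 12 libraries, with RPKM values, together with their own fold changes and test results, which were not used. Per the labels the genome build was mm9, and the paper's methods name the Tuxedo tools for most of the analysis, while the counting program, annotation and handling of strand are not given in the sources used here. The lengths behind the deposited RPKM, recovered from counts and RPKM, equalled the exon length for 79.3% of 14650 genes with 1 annotated transcript. For 18011 genes with several, as all members are, they equalled the summed lengths of all transcripts in 27.8% and the exon union in 0.644%, with a median of 1.51 times the union. GENCODE M21 (GRCm38) mRNA lengths were therefore used for levels per kb, and coordinates are of that build, since the table holds none.

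Counts of the 2 kidneys of a mouse were summed. After the filterByExpr filter and TMM scaling, edgeR 4.0.16 (R 4.3.3) gave quasi-likelihood tests, adjusted by Benjamini-Hochberg, and SE and 95% intervals came from the same fit. Single values were compared by exact permutation tests over mice. The procedure was tested on simulated data. Alternatives included DESeq2 1.42.0, upper-quartile and library-size scaling, no filter, single kidneys, a block for pairs of mice, other thresholds, other lengths and leaving out each mouse. The exon union, the split of the summed rise by length and overlap by library size alone were added after seeing the data. Genes named are the members, the called genes of the lists with up to 4 more per list of highest level, the 3 genes closest to each member and Hif1a; Fbp2, Tigar, Gfpt2, Taldo1, Pgam2, Eno3, Prkab2, Akt2, Rps6ka1 and the markers at 0 reads fall outside this rule and were chosen after their values were seen. Some genes of the lists are counted but not reported here by name. The members and lists were chosen with earlier results of these data known. Shares, exact tests and plots were made in Python 3.11.15 (scipy 1.17.1, matplotlib 3.10.9).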

Additional observations from a re-analysis of the deposited data

How the results depend on the processing

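The 3 members called, Pfkp, Pfkl and Pfkfb3, numbered 3 under each of the 17 alternatives run for that count. Over the alternatives for single genes the log2 fold change lay between 3.23 and 3.45 for Pfkp, 2.07 and 2.24 for Pfkl and 2.19 and 2.54 for Pfkfb3. It lay between 0.37 and 0.57 for Pfkfb4, -0.29 and -0.09 for Pfkm, -0.23 and -0.08 for Pfkfb2 and -0.46 and -0.01 for Pfkfb1, and for Pfkm, Pfkfb2 and Pfkfb4 library size alone gave the highest value. The number of genes called in all, 773 (732 higher, 41 lower), was 2358 (1534 higher, 824 lower) at an adjusted p below 0.01 with no minimum fold and 499 to 669 when a mouse was left out, the lowest without TG− mouse 43-76. The difference in the share of Pfkp, 33.1 percentage points, was 18.3 with the lengths behind the deposited RPKM and 28.1 with the exon union. The log2 difference in summed PFK-1, 2.07, was 2.24 without length, 1.90 with deposited lengths, 1.56 with the exon union and 2.19 by library size alone, and that in summed PFKFB, 0.44, was 0.56 by library size alone. Library size alone shifted the median of all genes from 0.01 to 0.13. The medians near 0 turned sign. For the fructose phosphate list the median, 0.02, lay between -0.0115 and 0.0547 when a mouse was left out, and it was -0.00305 without TG− mouse 43-76 and -0.0115 without TG+ mouse 43-49. For the AMPK and PFK-2 regulators the median, -0.10, was 0.0212 by library size alone. The share differences near 0 changed sign as well: that of Pfkl, 1.27, was -2.67 without length and 8.75 and 13.8 by deposited and exon union length, and that of Pfkfb4, 0.27, was -0.22 without length and -0.38 to 1.39 when a mouse was left out. Pairs of mice are listed only in the name of the table, with no basis given. Deviations of paired mice correlated at 0.39 (43-29 with 43-26), 0.34 (43-49 with 43-50) and -0.09 (43-75 with 43-76) over 16180 genes. Pairs not listed lay between -0.44 and 0.12, so the listed pairs of 43-29 and 43-49 stood above them and that of 43-75 did not. Pairing was not established, and the main test leaves it out. With the replicate block 825 genes were called, among them the same 3 members. Depth limits Pfkfb1, with 20 to 50 reads per mouse, and 3 mice a group limit exact tests to p = 0.1.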
